A study of Mus musculus with 12 samples.

Results

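Hepatocytes and macrophages taken from the livers of mice treated with the carcinogen diethylnitrosamine (DEN) were compared across all genes measured on Illumina mouse bead arrays. The comparison uses 4 of the 12 arrays of the series, chosen by their titles, 2 of DEN hepatocytes and 2 of DEN macrophages, and 12471 genes. The animals of both groups were male C57Bl/6 mice, labelled WT, injected intraperitoneally with DEN at 25 mg/kg on postnatal day 25 and followed for 9 months. Each RNA sample of these groups was a pool of 3 to 4 mice. Untreated hepatocytes and untreated macrophages, 2 arrays each, came from male C57Bl/6 mice of the same age without DEN and show what the same comparison gives in liver without DEN. How the cells were separated is not given in these sources, so each group is a preparation under its label, and its markers were checked. Nothing in the labels states that paired arrays of one group came from different pools, so p-values reflect the spread among these arrays alone, which can be technical.

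Hepatocytes are the liver's parenchymal cells. They secrete most plasma proteins, including coagulation factors, complement and carriers, and hold the urea cycle, bile acid synthesis and the cytochrome P450 enzymes, which also turn DEN into an alkylating agent. Liver macrophages include the resident Kupffer cells of the sinusoids and cells derived from blood monocytes. They take up particles, present antigen and release cytokines, and hepatocytes answer cytokines such as IL-6 and IL-1 with the acute phase response.

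Values are the deposited log2 values of single arrays. A difference is DEN hepatocytes minus DEN macrophages on the log2 scale ± SE, with n = 2 arrays per group, so a positive difference is higher in hepatocytes. A gene was called where limma, fitted over the 6 groups of the series, gave a Benjamini-Hochberg adjusted p under 0.05. Background on an array is the 95th percentile of its odorant and vomeronasal receptor probes, which liver should not use. It was 7.551 and 7.574 in DEN hepatocytes, against 7.434 and 7.433 in DEN macrophages, and 8618 and 8466 genes lay above it in DEN hepatocytes, against 10374 and 10341 in DEN macrophages. Where both arrays of the lower group were below background, the ratio is a bound, given as at least a fold. The 2 arrays of DEN hepatocytes differed more from each other (SD of differences 0.177) than the 2 of DEN macrophages (SD 0.10), while limma gives every group of a gene the same residual spread. All arrays share a maximum of 15.19, which limits differences of the most abundant transcripts.

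DEN hepatocytes were set apart by secreted plasma proteins, with the apolipoprotein gene Apoa4 foremost, and DEN macrophages by genes of lymphocytes, granulocytes and mast cells beside cytokines, with the lipase inhibitor gene G0s2 foremost. Of 12471 genes, 8398 (67.3%) were called, 3471 (27.8%) higher in hepatocytes and 4927 (39.5%) higher in macrophages. At least 2-fold differences were found for 1086 genes (8.71%) higher in hepatocytes and 817 (6.55%) higher in macrophages. The arrays of the groups did not overlap for 10140 genes (81.3%). The split of calls depends on scaling. With cyclic loess 4302 genes were higher in hepatocytes and 3804 in macrophages, and with the arrays centred on cytosolic ribosomal protein genes 10086 and 1013. The median difference of all genes was -0.06, and ribosomal centring, added after the data were seen, raised it by 0.70. A difference between -0.70 and 0 therefore changes sign on that scale, and differences are given below relative to the deposited scaling. In bulk RNA, fewer cells of a type and less RNA per cell cannot be told apart.

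Among the 15 largest differences toward hepatocytes, Apoa4, a lipoprotein component, had values of 13.53 and 13.67 in DEN hepatocytes, against 7.66 and 7.63 in DEN macrophages. Its difference was 5.95 ± 0.065, or 62-fold (limma adjusted p = 2.6e-13). The major urinary protein gene Mup6, which encodes a pheromone carrier, stood at 14.22 and 14.28 in DEN hepatocytes, against 8.31 and 8.55 in DEN macrophages. Fgl1, a liver-secreted fibrinogen-like protein, gave 13.79 and 13.97 in DEN hepatocytes, against 8.13 and 7.99 in DEN macrophages. For all 3 genes both hepatocyte arrays lay far above both macrophage arrays. The other 12 were Mup2, Apoc3, Fga, Fgg, Itih3, Itih4, Serpina1c, Itih1, Ces1c, Serpina1e, Plg and Cp, with differences between 5.54 (Cp) and 5.76 (Apoc3). All of these but the carboxylesterase Ces1c, itself a serum enzyme in mice, encode plasma or urinary proteins. The Mup and Serpina1 genes belong to families of near-identical copies, so the signal of a probe may be shared among members.

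Toward macrophages, G0s2 led with values of 8.75 and 8.40 in DEN hepatocytes, against 12.54 and 12.46 in DEN macrophages, a difference of -3.92 ± 0.10 (limma adjusted p = 6.23e-11). Retnlg, a resistin-like protein of granulocytes, gave 9.10 and 9.23 in DEN hepatocytes, against 13.06 and 13.002 in DEN macrophages. The mast cell protease Mcpt4 gave 8.03 and 7.90 in DEN hepatocytes, against 11.75 and 11.53 in DEN macrophages. The chain Cd3g of the T cell receptor complex gave 8.69 and 8.51 in DEN hepatocytes, against 12.26 and 12.19 in DEN macrophages. The macrophage arrays were the high ones in each case, with no overlap, which held for 81.3% of all genes. Of the 15, further genes of lymphocytes were Nkg7, Ccl5 and the T cell receptor segment Trbv13-2, the mast cell contributed Cpa3, and Il1r2 is a decoy receptor for interleukin-1 found on neutrophils. Ccl3 (-3.35), Il1b (-3.29), the phosphatase Dusp2 (-3.54), the stefin Cstdc4 (-3.62), the signal-regulatory protein Sirpb1a (-3.29) and the niacin receptor Hcar2 (-3.26) completed the set.

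**Figure D1:**
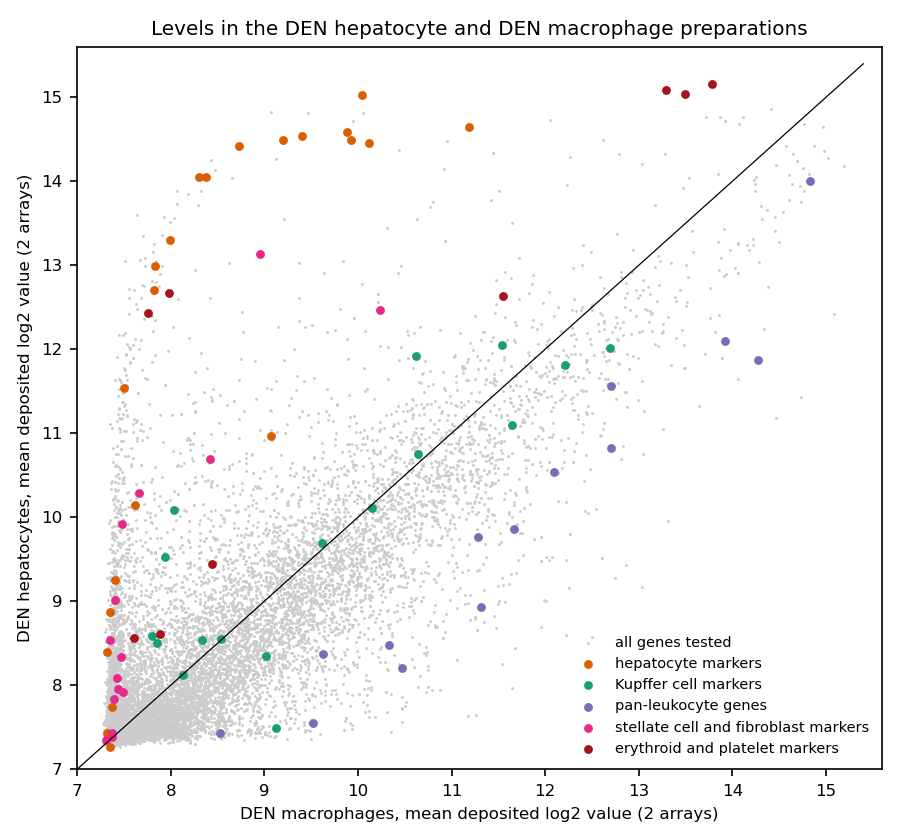
Mean deposited log2 value of each of the 12471 genes in DEN hepatocytes (vertical axis) against DEN macrophages (horizontal axis), with marker lists in colour and a line of equal values, n = 2 arrays per group. Hepatocyte markers lie far above the line, pan-leukocyte genes below it, and Kupffer cell markers along it.

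Hepatocyte markers separated the preparations. Of 22 hepatocyte markers measured, 19 were higher in DEN hepatocytes and none in macrophages, with a median difference of 4.45 against -0.06 for all genes. Hnf4a, a transcription factor that maintains hepatocyte identity, had values of 10.23 and 10.05 in DEN hepatocytes, against 7.68 and 7.55 in DEN macrophages, a difference of 2.53 ± 0.078 (limma adjusted p = 2.58e-10). The Alb probe, for albumin, gave 8.55 and 8.24 in DEN hepatocytes, against 7.30 and 7.33 in DEN macrophages, which is at least 1.95-fold higher in hepatocytes (limma adjusted p = 6.8e-07). The same probe gave 9.25 and 9.14 in untreated hepatocytes, also far below the maximum of the arrays. Macrophage preparations were not free of hepatocyte transcripts. In DEN macrophages 16 of the 22 markers lay above background, with a summed linear level of 10882 to 11921 per array, against 260811 to 269717 in DEN hepatocytes.

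Kupffer cell markers did not separate the preparations. Of 17 measured, 6 were higher in DEN hepatocytes, 5 were higher in DEN macrophages and 6 were not called, and their summed level was 25475 to 26205 in DEN hepatocytes, against 25082 to 26280 in DEN macrophages. Adgre1, a surface antigen of mature macrophages, had 12.09 and 12.002 in DEN hepatocytes, against 11.48 and 11.59 in DEN macrophages, and was slightly higher in hepatocytes (0.51 ± 0.057, limma adjusted p = 1.13e-05). The complement receptor Vsig4 gave 10.09 and 10.12 in DEN hepatocytes, against 10.14 and 10.15 in DEN macrophages, with a difference of -0.04 ± 0.057 that was not called (limma adjusted p = 0.542) and was positive with cyclic loess and on the ribosomal scale. The scavenger receptor Marco was higher in hepatocytes at 10.20 and 9.96 in DEN hepatocytes, against 8.01 and 8.06 in DEN macrophages (2.05 ± 0.075, limma adjusted p = 1.02e-09). Clec4f, a lectin of Kupffer cells, was the other way round with 8.41 and 8.30 in DEN hepatocytes, against 8.96 and 9.07 in DEN macrophages (-0.66 ± 0.066, limma adjusted p = 4.47e-06), a sign that turns on the ribosomal scale. Spic, a transcription factor of red pulp and Kupffer macrophages, was below background on both hepatocyte arrays and at least 2.95-fold higher in macrophages (limma adjusted p = 2.59e-09).

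In untreated liver 8029 genes (64.4%) were called, 27.9% of all higher in hepatocytes and 36.5% higher in macrophages. The same 17 markers were all lower in untreated hepatocytes, with a median difference of -4.64. Their summed level there was 12589 to 12793 in untreated hepatocytes, against 237405 to 237994 in untreated macrophages. The Kupffer signal was thus about equal in the DEN preparations, higher in DEN than in untreated hepatocytes, and far lower in DEN than in untreated macrophages. Monocyte markers were higher in DEN macrophages for 8 of 11 genes and in hepatocytes for 2, against 39.5% and 27.8% of all genes. Their median of -0.53 becomes 0.17 on the ribosomal scale. Plac8, S100a4 and the fractalkine receptor Cx3cr1 differed by -2.21 ± 0.063, -1.94 ± 0.10 and -1.52 ± 0.05, and Ccr2, the receptor that brings monocytes out of marrow, was at least 1.99-fold higher in macrophages. Fn1, fibronectin, which hepatocytes also secrete, went the other way (2.35 ± 0.065). So did the monocyte marker Lyz2, whose difference was 0.15 without DEN macrophages replicate 1. Its sign turned when the probes of a gene were averaged (-0.17).

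Genes of all leukocytes still told the preparations apart. All 14 pan-leukocyte genes that passed the background filter were higher in DEN macrophages (39.5% of all genes were), with a median difference of -1.81. Without that filter 14 of 15 were. Ptprc, which encodes the leukocyte antigen CD45, had 8.49 and 8.47 in DEN hepatocytes, against 10.08 and 10.58 in DEN macrophages (-1.85 ± 0.13, limma adjusted p = 2.27e-07). The myeloid master regulator Spi1 gave 7.42 and 7.39 in DEN hepatocytes, against 8.69 and 8.71 in DEN macrophages, below background on both hepatocyte arrays, and was at least 2.21-fold higher in macrophages (limma adjusted p = 6.87e-08). In DEN hepatocytes 12 of the 14 nevertheless lay above background, at a summed level of 34339 to 34787, against 94056 to 96266 in DEN macrophages and 3499 to 3677 in untreated hepatocytes.

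Markers of other cells were present on both sides. Toward hepatocytes, 12 of 15 stellate cell and fibroblast markers were higher and none lower, at a summed level of 20861 to 21611 in DEN hepatocytes, against 4015 to 4228 in DEN macrophages. Dcn, the matrix proteoglycan decorin, led them with 13.16 and 13.12 in DEN hepatocytes, against 9.13 and 8.78 in DEN macrophages (4.18 ± 0.13, limma adjusted p = 2.33e-10), and the smooth muscle actin Acta2 followed the same pattern (2.27 ± 0.063). All 7 cholangiocyte markers that passed the background filter were higher in hepatocytes. They were led by the tetraspanin Tspan8 (4.34), the duct regulator Sox9 (3.42) and the keratin Krt23 (at least 7.51-fold). Without that filter 8 of 9 were higher, and the median went from 1.70 to 1.34. All 9 erythroid and platelet markers that passed it (9 of 10 without it) were higher in hepatocytes too. Their summed level was 124129 to 126584 in DEN hepatocytes, against 37788 to 42129 in DEN macrophages. The red cell genes Alas2 and Slc4a1 differed by 4.69 ± 0.055 and 4.67 ± 0.049, and the globin Hba-a1 gave 15.07 and 15.11 in DEN hepatocytes, against 13.36 and 13.23 in DEN macrophages. Vascular endothelial markers were higher in hepatocytes for 11 of 14 genes and lower for 1 (Ly6c1), and SEC markers for 7 of 18 and lower for 3. Of all genes 27.8% were higher in hepatocytes and 39.5% lower. Here SEC are the sinusoidal endothelial cells that line liver capillaries.

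Toward macrophages, all 10 T and NK cell markers that passed the background filter were higher (10 of 12 without it). Their summed level was 6696 to 7120 in DEN hepatocytes, against 51333 to 52655 in DEN macrophages. All 7 B and plasma cell markers, 8 of 9 dendritic cell markers and 7 of 8 mast cell and basophil markers were higher in macrophages as well. Without the filter the counts were 7 of 8, 8 of 10 and 7 of 8. The mast cell markers Mcpt4, Cpa3 and Cma2 had differences of -3.67, -3.24 and -2.20. Siglech, a plasmacytoid dendritic cell lectin, was the exception among dendritic cell markers (1.24 ± 0.097, limma adjusted p = 6.19e-07).

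Neutrophil markers went both ways. Of 15 markers 10 were higher in macrophages and 4 in hepatocytes, against 39.5% and 27.8% of all genes. The hepatocyte share was thus near that of all genes. The 4 were the primary granule proteins Mpo, Prtn3 and Elane, which are made by promyelocytes, and Ltf, of secondary granules, whose difference of 0.27 turned sign when the probes of a gene were averaged. Mpo stood at 12.12 and 12.14 in DEN hepatocytes, against 9.98 and 9.79 in DEN macrophages (2.24 ± 0.064, limma adjusted p = 1.38e-10). The receptor for G-CSF, Csf3r, a gene of mature neutrophils, had 8.86 and 9.08 in DEN hepatocytes, against 11.40 and 11.60 in DEN macrophages (-2.53 ± 0.095). The alarmin S100a8 had 13.25 and 13.23 in DEN hepatocytes, against 14.32 and 13.997 in DEN macrophages (-0.92 ± 0.093), and the secondary granule gene Ngp differed by -2.14 ± 0.079. Arrays of the preparations did not overlap for Mpo, Csf3r or S100a8, nor for 81.3% of all genes. All of these marker shifts stand beside the gene groups below, and their part in those results was not tested.

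**Figure D2:**
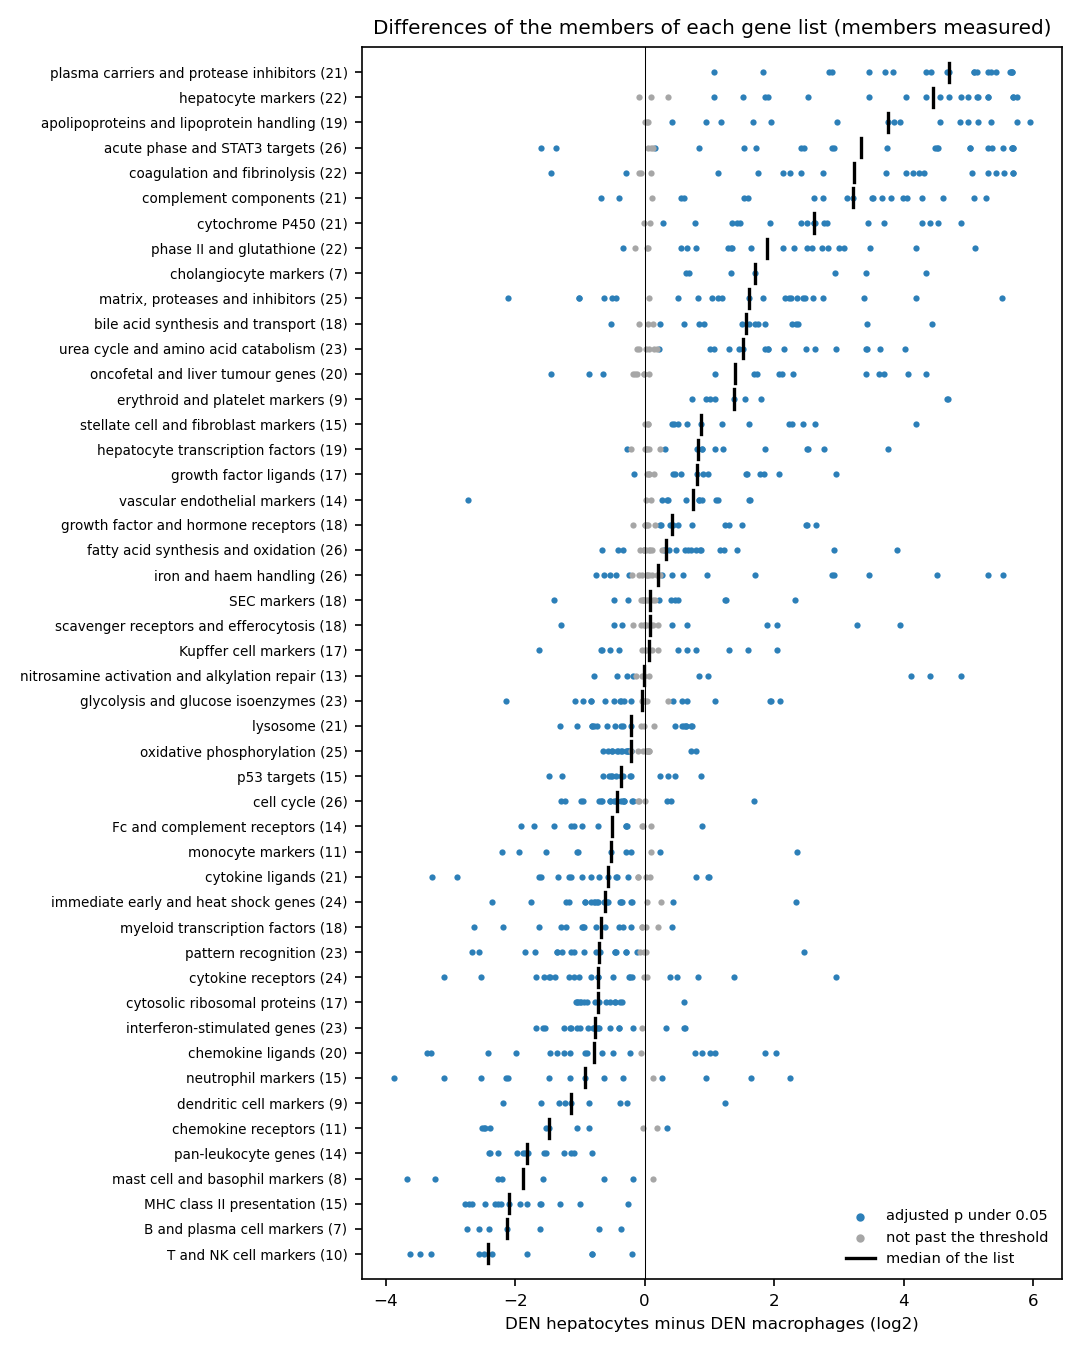
Differences of single genes, DEN hepatocytes minus DEN macrophages on the log2 scale, for the members of each of the 48 lists, in blue where limma's adjusted p is under 0.05 and in grey otherwise, with the list's median as a black bar. Lists of secreted proteins, amino acid and bile acid metabolism and cytochrome P450 lie to the right. Those of lymphoid cells, antigen presentation and cytokines lie to the left. The medians of oxidative phosphorylation and glycolysis genes are slightly negative. On the ribosomal scale 11 of the 48 medians change sign.

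Of the 48 lists, plasma carriers and protease inhibitors had the largest median difference. All 21 genes measured were higher in DEN hepatocytes (27.8% of all genes were), with a median of 4.71, or 26.1-fold. Counts of DEN differences in every list below stand against the same shares, 27.8% of all genes higher in hepatocytes and 39.5% in macrophages. The inter-alpha-trypsin inhibitor heavy chain Itih3, which binds hyaluronan, had 13.81 and 13.89 in DEN hepatocytes, against 8.20 and 8.15 in DEN macrophages (5.67 ± 0.07, limma adjusted p = 3.25e-13). Its relatives Itih4 and Itih1 differed by 5.67 and 5.64, and the antitrypsin Serpina1c by 5.66. Of 19 apolipoprotein and lipoprotein genes 16 were higher in hepatocytes and none in macrophages (median 3.76), including Apom (5.34), the carrier of sphingosine-1-phosphate, and Apoh (5.15).

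Coagulation and fibrinolysis genes were higher in hepatocytes for 17 of 22 and higher in macrophages for 2 (median 3.23). The fibrinogen chain Fga gave 14.40 and 14.43 in DEN hepatocytes, against 8.88 and 8.57 in DEN macrophages, and the chain Fgg differed by 5.68 ± 0.057. Prothrombin, F2, had 13.26 and 13.34 in DEN hepatocytes, against 7.97 and 8.02 in DEN macrophages, and plasminogen, Plg, differed by 5.55 ± 0.076. The 2 genes of the list that were higher in macrophages are ones that leukocytes use: Plaur, the urokinase receptor, had 8.39 and 8.40 in DEN hepatocytes, against 9.88 and 9.81 in DEN macrophages (-1.45 ± 0.063, limma adjusted p = 4.53e-09), and F13a1, the factor XIII chain made by macrophages and platelets, differed by -0.29 ± 0.084, a sign that turns on the ribosomal scale. Its call was lost without DEN hepatocytes replicate 2 (-0.16, limma adjusted p = 0.0844) or DEN macrophages replicate 1 (-0.20, limma adjusted p = 0.103).

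Complement showed the same division. Of 21 components 18 were higher in hepatocytes and 2 in macrophages (median 3.21). The regulators Cfi and Serping1 differed by 5.26 ± 0.087 and 5.08 ± 0.067, and C8g and Hc, of the membrane attack complex, by 4.60 and 4.28. The 2 exceptions were C1qb and C1qc, subunits of C1q, which macrophages make: C1qb gave 12.08 and 11.95 in DEN hepatocytes, against 12.85 and 12.54 in DEN macrophages (-0.68 ± 0.1, limma adjusted p = 0.000101), and C1qc differed by -0.40 ± 0.059. Both signs turn on the ribosomal scale. In untreated liver the same differences were -5.79 and -5.77.

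Promoter windows are shown for these secreted proteins and for leukocyte genes because the transcription factors HNF1, of hepatocytes, and PU.1, encoded by Spi1, are known regulators of the 2 classes. RefSeq windows of build GRCm38.p6, from 250 bases before to 50 after a start, were matched by symbol for 845 of the 1086 genes at least 2-fold higher in hepatocytes (1092 windows) and for 643 of the 817 higher in macrophages (851 windows). On both strands, GTTAAT with TT after any pair of bases, part of the HNF1 motif, were in 2.11% of the hepatocyte windows, against 0.47% of the macrophage windows, 0.697% of the windows of all genes tested and 1.03% of all windows. The letters GAGGAAGT, a PU.1 core, were in 2.20% of the hepatocyte windows, against 6.46% of the macrophage windows, 3.19% for all genes tested and 3.20% of all windows. The letters were chosen with results of these data known, the shares carry no test, and a match is not a site. The HNF4 letters CAAAGTCCA were in 1.10% of hepatocyte and 0.47% of macrophage windows, and 0.517% of those tested. For C/EBP (TTGCNNAA), AP-1 (TGANTCA) and the TATA box (TATAAA) the shares were 13.2%, 8.52% and 12.8% in hepatocyte windows, against 12.5%, 6.58% and 13% in macrophage windows and 9.17%, 5.94% and 8.63% in those of all genes tested.

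The 4 windows below are those of the 2 genes with the largest difference in each direction among the ranked genes holding the HNF1 or the PU.1 letters. Predicted gene models and the windows of a single chromosome were left out of this ranking. The 4 windows were thus chosen after their values were seen. Capitals mark the matching letters, in Cp on the opposite strand, and each window is given 5′ to 3′ on the gene's strand. Cp, the copper-carrying ferroxidase ceruloplasmin (chr3:19956804-19957103, plus strand), differed by 5.54 ± 0.069, with values of 13.46 and 13.67 in DEN hepatocytes, against 7.99 and 8.07 in DEN macrophages. Hgfac, the protease that activates hepatocyte growth factor (chr5:35041259-35041558, plus strand), gave 12.43 and 12.52 in DEN hepatocytes, against 7.68 and 7.59 in DEN macrophages. Ly6c1, a surface antigen of endothelium and leukocytes (chr15:75048614-75048913, minus strand), gave 9.38 and 9.61 in DEN hepatocytes, against 12.28 and 12.17 in DEN macrophages. Btla, an inhibitory receptor of lymphocytes (chr16:45224087-45224386, plus strand), gave 7.75 and 7.62 in DEN hepatocytes, against 10.17 and 10.07 in DEN macrophages. The high arrays were the hepatocyte ones for Cp and Hgfac and the macrophage ones for Ly6c1 and Btla, without overlap (81.3% of all genes had none).
Cp: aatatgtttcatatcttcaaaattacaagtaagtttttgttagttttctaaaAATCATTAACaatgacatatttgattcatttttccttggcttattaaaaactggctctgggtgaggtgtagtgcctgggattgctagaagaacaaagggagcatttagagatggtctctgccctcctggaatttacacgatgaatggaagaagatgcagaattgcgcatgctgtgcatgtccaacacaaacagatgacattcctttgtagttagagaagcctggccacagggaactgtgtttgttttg
Hgfac: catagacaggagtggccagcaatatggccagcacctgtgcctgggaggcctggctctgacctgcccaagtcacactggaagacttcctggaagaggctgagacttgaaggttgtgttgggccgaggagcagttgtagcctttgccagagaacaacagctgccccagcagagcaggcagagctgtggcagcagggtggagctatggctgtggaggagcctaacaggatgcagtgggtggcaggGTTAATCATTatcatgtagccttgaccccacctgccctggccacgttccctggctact
Ly6c1: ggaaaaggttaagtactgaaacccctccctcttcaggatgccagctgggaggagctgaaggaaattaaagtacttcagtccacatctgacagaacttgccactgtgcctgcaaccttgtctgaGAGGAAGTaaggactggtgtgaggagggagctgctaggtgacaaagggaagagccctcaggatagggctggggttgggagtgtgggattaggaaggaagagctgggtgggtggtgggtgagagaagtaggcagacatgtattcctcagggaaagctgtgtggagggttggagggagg
Btla: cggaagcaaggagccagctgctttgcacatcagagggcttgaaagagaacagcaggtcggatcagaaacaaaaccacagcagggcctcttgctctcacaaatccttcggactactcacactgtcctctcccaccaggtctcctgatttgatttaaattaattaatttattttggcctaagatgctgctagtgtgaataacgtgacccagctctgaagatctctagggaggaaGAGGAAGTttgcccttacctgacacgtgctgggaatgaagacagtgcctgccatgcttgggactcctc

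Metabolic enzymes were also higher in hepatocytes, by less than the secreted proteins in the median and by less than in untreated liver. Of 23 genes of the urea cycle and amino acid catabolism 17 were higher and none lower, with a median difference of 1.53 in DEN liver, against 4.12 in untreated liver. Mat1a, which makes S-adenosylmethionine, had 12.04 and 11.93 in DEN hepatocytes, against 8.06 and 7.88 in DEN macrophages, and Fah, the last enzyme of tyrosine breakdown, had 11.93 and 11.98 in DEN hepatocytes, against 8.41 and 8.22 in DEN macrophages. Both were clearly higher in hepatocytes (4.01 ± 0.067 and 3.64 ± 0.069). The methyltransferase Gnmt and the histidine-degrading Uroc1 followed (3.43 and 3.42). The 6 genes of the list that were not called included the urea cycle enzymes Otc (7.67 and 7.36 in DEN hepatocytes, against 7.37 and 7.36 in DEN macrophages) and Asl (7.69 and 7.64 in DEN hepatocytes, against 7.56 and 7.64 in DEN macrophages), named after their values were seen.

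Bile acid genes were higher in hepatocytes for 14 of 18 and higher in macrophages for 1 (median 1.56 in DEN, 2.91 in untreated liver). The uptake carrier Slco1b2 had 12.01 and 11.99 in DEN hepatocytes, against 7.61 and 7.51 in DEN macrophages (4.44 ± 0.087, limma adjusted p = 6.38e-12). The bile acid CoA ligase Slc27a5 was at least 10.7-fold and the sterol exporter Abcg5 at least 4.9-fold higher, and the oxysterol hydroxylase Cyp7b1 differed by 2.37. Cyp27a1, a sterol hydroxylase that macrophages also express, was the exception: it had 9.87 and 9.85 in DEN hepatocytes, against 10.31 and 10.45 in DEN macrophages (-0.52 ± 0.074, limma adjusted p = 8.38e-05), positive on the ribosomal scale, against an untreated difference of 2.54.

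Of 21 cytochrome P450 genes 19 were higher in hepatocytes and none in macrophages (median 2.61 in DEN, 4.21 in untreated liver). Cyp2e1, the main activator of DEN, had 12.76 and 12.65 in DEN hepatocytes, against 7.80 and 7.83 in DEN macrophages (4.89 ± 0.07, limma adjusted p = 6.2e-13), and the untreated difference was 6.13. Cyp2a5, which also oxidises nitrosamines, differed by 4.40 ± 0.20. Cyp2a4, a female-biased steroid hydroxylase in mice and a near copy of Cyp2a5 whose signal may be shared, had 12.53 and 12.66 in DEN hepatocytes, against 8.22 and 7.93 in DEN macrophages in these male animals, while its difference in untreated liver was 0.23. Cyp2d10 differed by 4.28. Among phase II and glutathione genes 18 of 22 were higher in hepatocytes and 1 (Nat2, whose sign turns on the ribosomal scale) in macrophages, led by the glucuronosyltransferase Ugt2b36 (5.10 ± 0.059) and the glutathione transferases Gsta3 (4.19) and Gstm2 (3.47). Nat2 lost its call without DEN hepatocytes replicate 1 (-0.17, limma adjusted p = 0.0767) or DEN macrophages replicate 2 (-0.30, limma adjusted p = 0.0614).

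Genes of energy metabolism went both ways. Oxidative phosphorylation genes were higher in hepatocytes for 2 of 25 and in macrophages for 14, with a median of -0.22 that becomes 0.48 on the ribosomal scale, and 0.72 in untreated liver. Sdhc and Ndufv1, subunits of complexes II and I, were the 2 higher in hepatocytes (0.80 ± 0.074 and 0.72 ± 0.064), and the cytochrome oxidase subunit Cox5b was lower (-0.64 ± 0.096, positive on the ribosomal scale). Of 23 glycolysis genes 7 were higher in hepatocytes and 11 in macrophages, shares of the order of those among all genes (27.8% and 39.5%), and the median of -0.03 becomes 0.66 on the ribosomal scale. The glucose transporter Slc2a2 was at least 4.13-fold higher in hepatocytes, and the gluconeogenic G6pc and Fbp1 differed by 1.96 ± 0.25 and 1.93 ± 0.067. Slc2a3, the high-affinity glucose transporter of leukocytes, had 8.88 and 8.65 in DEN hepatocytes, against 10.91 and 10.91 in DEN macrophages (-2.14 ± 0.071), and the myeloid hexokinase Hk3 differed by -1.08 ± 0.075. Fatty acid genes were higher in hepatocytes for 14 of 26 and in macrophages for 3 (median 0.33 in DEN, 1.64 in untreated liver), led by the peroxisomal thiolase Acaa1b (3.90 ± 0.059) and the desaturase Scd1 (2.92 ± 0.054).

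Hepatocyte transcription factors were higher in hepatocytes for 12 of 19 and higher in macrophages for 1, with a median of 0.82. Foxa3, a pioneer factor of endoderm, had 11.28 and 11.27 in DEN hepatocytes, against 7.54 and 7.50 in DEN macrophages (3.75 ± 0.047), Onecut2 differed by 2.78 ± 0.049 and the carbohydrate-response factor Mlxipl by 2.51 ± 0.10. Cebpa was the exception: it lay below background on both hepatocyte arrays and was at least 1.07-fold higher in macrophages (limma adjusted p = 0.00117), a direction that turns on the ribosomal scale. This factor also acts in the myeloid lineage, and its untreated difference was 0.95.

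Oncofetal and liver tumour genes were higher in hepatocytes for 11 of 20 and in macrophages for 3, with a median of 1.39 in DEN liver, against -0.13 in untreated liver. The cell-surface proteoglycan Gpc3, a marker of human liver cancer, had 11.54 and 11.62 in DEN hepatocytes, against 7.55 and 7.49 in DEN macrophages (4.06 ± 0.052, limma adjusted p = 3.74e-13). The fetal serum protein Afp had 9.45 and 9.25 in DEN hepatocytes, against 7.63 and 7.62 in DEN macrophages (1.73 ± 0.076, limma adjusted p = 4.85e-09). Spink1, a secreted trypsin inhibitor, and the trefoil peptide Tff3 differed by 3.69 ± 0.069 and 3.62 ± 0.15, and the fetal growth factor Igf2 by 2.07 ± 0.084. In untreated liver the differences of Gpc3, Afp, Igf2 and Tspan8 were -0.04, 0.04, -0.14 and -0.04. The 3 members higher in macrophages were S100a11 (-1.44 ± 0.079), the galectin Lgals1 (-0.86 ± 0.12) and Cd24a (at least 1.43-fold, the other way on the ribosomal scale), all of which leukocytes express. The cholangiocyte markers Tspan8 and Sox9 are also on this list.

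Of 13 genes of nitrosamine activation and alkylation repair 5 were higher in hepatocytes and 4 in macrophages, shares of the order of those among all genes (27.8% and 39.5%), and the median of -0.01 becomes 0.69 on the ribosomal scale and 0.11 with cyclic loess. Cyp2e1, Cyp2a5 and the alcohol dehydrogenase Adh1 (4.11 ± 0.07) were higher in hepatocytes, and so was Mgmt, which removes alkyl groups from guanine, with 8.80 and 9.22 in DEN hepatocytes, against 8.04 and 8.03 in DEN macrophages (0.98 ± 0.11, limma adjusted p = 8.76e-06). Parp1, which signals strand breaks, had 9.38 and 9.45 in DEN hepatocytes, against 10.22 and 10.17 in DEN macrophages (-0.78 ± 0.063, limma adjusted p = 7.62e-07). The base excision nuclease Apex1 and the mismatch protein Msh6 were lower in hepatocytes as well (-0.42 and -0.28), and so was the glycosylase Ogg1, which was not above background in hepatocytes, all 3 with signs that turn on the ribosomal scale. Ogg1 lost its call without DEN macrophages replicate 1 (limma adjusted p = 0.12).

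On the macrophage side, all 15 genes of antigen presentation by MHC class II were higher in DEN macrophages, with a median of -2.10, against -4.54 in untreated liver. The invariant chain Cd74 had 12.30 and 12.54 in DEN hepatocytes, against 15.11 and 15.05 in DEN macrophages (-2.66 ± 0.11, limma adjusted p = 2.44e-09). H2-DMa, which loads peptides, differed by -2.46 ± 0.069. The largest differences were those of H2-Ob (-2.77 ± 0.061) and H2-Oa (-2.71 ± 0.05), the chains of the DM inhibitor H2-O, which is known mainly from B cells and dendritic cells. All 7 B and plasma cell markers that passed the background filter moved in the same direction (-2.75 for Fcrla, -2.55 for Cd79b, -2.41 for Blk and -2.13 for Mzb1). Their part in this result was not tested.

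Pattern recognition genes were higher in macrophages for 19 of 23 and in hepatocytes for 1 (median -0.70). On the ribosomal scale 10 were higher in macrophages and 10 in hepatocytes, with a median of -0.003. The C-type lectin Clec4e, or Mincle, which senses dead cells and mycobacterial lipid, had 8.02 and 7.93 in DEN hepatocytes, against 10.70 and 10.59 in DEN macrophages (-2.67 ± 0.06, limma adjusted p = 1.89e-11). Its relatives Clec4n and Clec4d differed by -2.56 ± 0.06 and -1.69 ± 0.082, and Tlr2, the receptor for bacterial lipoproteins, had 9.51 and 9.53 in DEN hepatocytes, against 11.38 and 11.36 in DEN macrophages (-1.85 ± 0.072). Lbp, the secreted protein that hands lipopolysaccharide to CD14, was the single member higher in hepatocytes on the deposited scaling (2.46 ± 0.088). Macrophage and hepatocyte arrays stood apart for all 5 of these genes, as they did for 81.3% of all genes.

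Fc and complement receptors were higher in macrophages for 10 of 14 and in hepatocytes for 1, with a median of -0.51 that becomes 0.19 on the ribosomal scale. The signalling adaptors Tyrobp and Fcer1g differed by -1.90 ± 0.08 and -1.71 ± 0.045, and the inhibitory receptor Fcgr2b by -1.39 ± 0.099. The integrin chain Itgax was below background in hepatocytes and at least 2.02-fold higher in macrophages. Fcgrt, the neonatal Fc receptor that recycles IgG and albumin in hepatocytes too, had 11.86 and 11.96 in DEN hepatocytes, against 11.03 and 11.02 in DEN macrophages (0.88 ± 0.049). Myeloid transcription factors were higher in macrophages for 13 of 18 and in hepatocytes for 1, with a median of -0.68 that becomes 0.02 on the ribosomal scale. Ikzf1, a lymphoid and myeloid factor, had 8.99 and 8.65 in DEN hepatocytes, against 11.45 and 11.47 in DEN macrophages (-2.64 ± 0.09), and Irf8, of monocytes and dendritic cells, differed by -2.19 ± 0.09. Zeb2 was the member higher in hepatocytes (0.43 ± 0.12), and its sign turned when the probes of a gene were averaged. Its call was lost without DEN hepatocytes replicate 1 (0.25, limma adjusted p = 0.096) or DEN macrophages replicate 2 (0.41, limma adjusted p = 0.0534).

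Inflammatory ligands lay mainly with the macrophages. Il1b, the pyrogenic cytokine interleukin-1 beta, had 11.20 and 11.17 in DEN hepatocytes, against 14.56 and 14.39 in DEN macrophages (-3.29 ± 0.10, limma adjusted p = 2.36e-10). Tnf was below background on both hepatocyte arrays with 7.52 and 7.38 in DEN hepatocytes, against 10.37 and 10.33 in DEN macrophages, and was at least 6.9-fold higher in macrophages (limma adjusted p = 1.98e-11). The IL-6 family member Osm had 11.03 and 10.91 in DEN hepatocytes, against 12.65 and 12.56 in DEN macrophages (-1.63 ± 0.054, limma adjusted p = 4.13e-10), and the IL-1 receptor antagonist Il1rn differed by -1.61 ± 0.075. The low arrays of all 4 genes were those of hepatocytes. Il6 itself went the other way with 8.66 and 8.66 in DEN hepatocytes, against 7.61 and 7.73 in DEN macrophages (0.99 ± 0.052, limma adjusted p = 2.18e-08), as did the alarmin Il33 (0.97 ± 0.055) and Il18bp, which neutralises interleukin-18 (0.79 ± 0.11). Of 21 cytokine ligands 14 were higher in macrophages and 3 in hepatocytes, and the median of -0.56 becomes 0.14 on the ribosomal scale.

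Receptors divided between the preparations. Toward macrophages, the TNF receptor Tnfrsf1b had 7.56 and 7.48 in DEN hepatocytes, against 8.94 and 8.86 in DEN macrophages (-1.38 ± 0.061, limma adjusted p = 4.71e-09), while the difference of the broadly expressed Tnfrsf1a was -0.20 ± 0.059, positive on the ribosomal scale and not called without DEN macrophages replicate 1 (-0.19, limma adjusted p = 0.0595). The decoy Il1r2 had 9.06 and 9.25 in DEN hepatocytes, against 12.15 and 12.35 in DEN macrophages (-3.09 ± 0.094), and Csf1r, the receptor on which macrophages depend, had 10.65 and 10.72 in DEN hepatocytes, against 11.37 and 11.65 in DEN macrophages (-0.82 ± 0.093, limma adjusted p = 1.31e-05). Il10ra and Csf2ra differed by -1.67 ± 0.061 and -1.55 ± 0.082. The other way, 5 receptors were higher in hepatocytes. Il6ra, the IL-6 binding chain, had 9.56 and 9.56 in DEN hepatocytes, against 8.62 and 8.85 in DEN macrophages (0.82 ± 0.068, limma adjusted p = 1.09e-06). Its signalling partner Il6st had 8.52 and 9.05 in DEN hepatocytes, against 8.37 and 8.41 in DEN macrophages (0.39 ± 0.13, limma adjusted p = 0.0197), with hepatocyte arrays that differed from each other more than the arrays of most genes. It was not called without DEN hepatocytes replicate 2 (0.13, limma adjusted p = 0.133), DEN macrophages replicate 1 (0.37, limma adjusted p = 0.0858) or DEN macrophages replicate 2 (0.41, limma adjusted p = 0.0583). Osmr, of oncostatin M, differed by 0.49 ± 0.05, and Il1rap, the accessory chain of the IL-1 receptor, had 8.93 and 9.04 in DEN hepatocytes, against 7.61 and 7.59 in DEN macrophages (1.38 ± 0.054). Ifngr2, a chain of the interferon gamma receptor, showed the largest difference toward hepatocytes among the receptors of the list, with 13.76 and 13.74 in DEN hepatocytes, against 10.60 and 11.01 in DEN macrophages (2.95 ± 0.12, limma adjusted p = 1.75e-09). Its untreated difference was -1.10. Over the list 17 of 24 receptors were higher in macrophages and 5 in hepatocytes (median -0.72), against 39.5% and 27.8% of all genes. On the ribosomal scale 10 were higher in macrophages and 11 in hepatocytes, with a median of -0.021. Il1r1, the signalling receptor of IL-1, did not pass the background filter and was not tested.

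Acute phase genes, the targets of these cytokines in hepatocytes, were higher in hepatocytes for 21 of 26 and in macrophages for 2. Of all genes 27.8% and 39.5% were. The list's median was 3.34 in DEN liver, against 3.99 in untreated liver. Besides the fibrinogen and inter-alpha-inhibitor chains, which other lists above also hold, Cp and the iron hormone Hamp (below) are members. The serum amyloid Saa1 had 12.01 and 12.11 in DEN hepatocytes, against 7.51 and 7.55 in DEN macrophages, and the pentraxin Crp had 13.08 and 13.11 in DEN hepatocytes, against 7.75 and 7.70 in DEN macrophages. Saa3, the amyloid that macrophages also make, had 14.32 and 14.34 in DEN hepatocytes, against 12.84 and 12.74 in DEN macrophages, high in both preparations. Lcn2, a siderophore-binding protein of hepatocytes and neutrophils, had 12.44 and 12.48 in DEN hepatocytes, against 12.45 and 12.22 in DEN macrophages and was not called. These 4 genes were picked after their values were seen. The 2 members higher in macrophages were Il1rn and the feedback inhibitor Socs3, which had 10.05 and 9.98 in DEN hepatocytes, against 11.51 and 11.25 in DEN macrophages (-1.37 ± 0.12, limma adjusted p = 1.16e-06). Nfkbia, which encodes the inhibitor of NF-kappa-B and is itself a target of that factor, had 10.19 and 9.95 in DEN hepatocytes, against 12.46 and 12.40 in DEN macrophages (-2.35 ± 0.083, limma adjusted p = 7.12e-10).

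**Figure D3:**
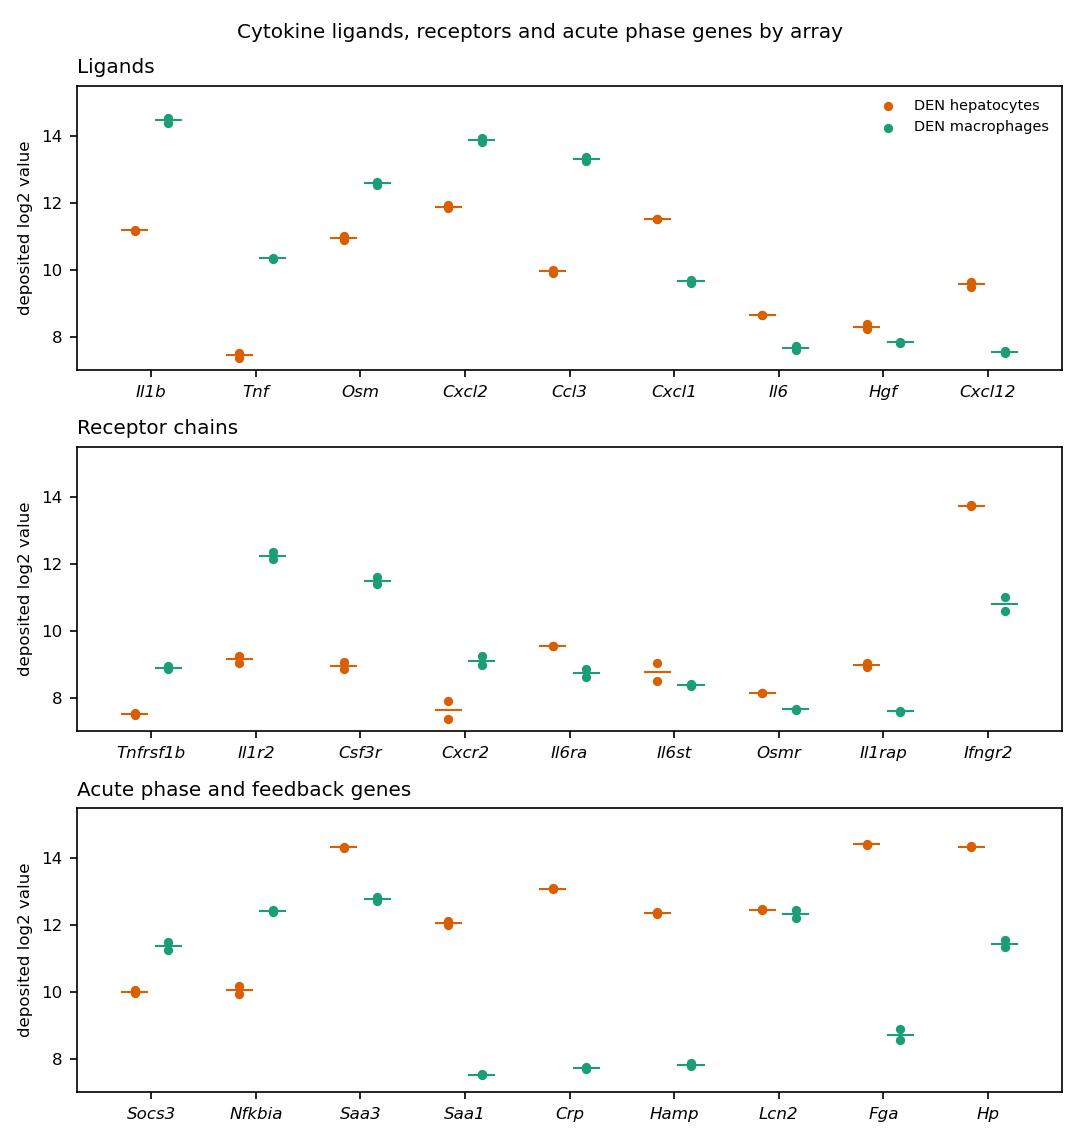
Deposited log2 values of single arrays for cytokine ligands, receptors, and acute phase and feedback genes, in DEN hepatocytes (orange, left of each pair) and DEN macrophages (green, right), with bars for the mean of the 2 arrays, for genes picked with their values known. Il1b, Tnf, Osm, Il1r2 and Socs3 are higher in macrophages, and Il6, Il6ra, Saa1, Crp and Fga are higher in hepatocytes.

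Chemokines repeated this division. Of 20 ligands 13 were higher in macrophages and 6 in hepatocytes (median -0.78), against 39.5% and 27.8% of all genes. The hepatocyte share was thus near that of all genes. On the ribosomal scale 10 were higher in macrophages and 9 in hepatocytes, with a median of -0.077. Ccl3, which draws monocytes and T cells, had 9.91 and 10.01 in DEN hepatocytes, against 13.37 and 13.26 in DEN macrophages (-3.35 ± 0.061, limma adjusted p = 3.94e-12), and Ccl5 and Ccl4 differed by -3.30 ± 0.075 and -2.42 ± 0.058. The neutrophil chemokines went opposite ways. Cxcl2 had 11.93 and 11.86 in DEN hepatocytes, against 13.94 and 13.83 in DEN macrophages (-1.99 ± 0.058, limma adjusted p = 1.49e-10), whereas Cxcl1 had 11.53 and 11.51 in DEN hepatocytes, against 9.72 and 9.62 in DEN macrophages (1.86 ± 0.063, limma adjusted p = 5.27e-10). Their receptor Cxcr2 gave 7.90 and 7.37 in DEN hepatocytes, against 8.99 and 9.25 in DEN macrophages, a difference of -1.48 ± 0.14 with hepatocyte arrays either side of background. Cxcl12, the ligand of Cxcr4, had 9.63 and 9.51 in DEN hepatocytes, against 7.57 and 7.51 in DEN macrophages (2.03 ± 0.096), and Cxcr4 had 8.87 and 9.12 in DEN hepatocytes, against 11.45 and 11.56 in DEN macrophages (-2.51 ± 0.094). The platelet chemokines Pf4 and Ppbp were higher in hepatocytes (1.08 ± 0.081 and 1.01 ± 0.057), together with the erythroid and platelet markers, on which list they also stand. Chemokine receptors were higher in macrophages for 8 of 11 and in hepatocytes for 1, and Cxcr3 and Cxcr6, which T cells carry, were at least 4.87-fold and 5.2-fold higher. The T and NK cell markers moved with them (all 10 that passed the background filter were higher in macrophages), and their part was not tested.

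Growth factors and their receptors lay toward hepatocytes. Of 17 ligands 12 were higher in hepatocytes and 1 in macrophages (median 0.81), and of 18 receptors 12 and none (median 0.42). Igf1, the endocrine mediator of growth hormone, had 10.93 and 10.91 in DEN hepatocytes, against 9.15 and 9.01 in DEN macrophages (1.84 ± 0.067, limma adjusted p = 9.52e-10), and the growth hormone receptor Ghr differed by 2.50 ± 0.072. The epidermal growth factor receptor Egfr had 10.12 and 10.10 in DEN hepatocytes, against 7.48 and 7.44 in DEN macrophages (2.65 ± 0.15), and the glucagon receptor Gcgr differed by 1.497 ± 0.085. Hgf, the hepatocyte mitogen that stellate cells secrete, had 8.25 and 8.38 in DEN hepatocytes, against 7.81 and 7.86 in DEN macrophages (0.47 ± 0.06, limma adjusted p = 3.13e-05). It was higher in the hepatocyte preparation, in which 12 of 15 stellate cell markers were higher too, and their part was not tested. The same holds for Flt1 (2.50 ± 0.086), a VEGF receptor of endothelium, beside 11 of 14 vascular endothelial markers.

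Iron genes went both ways. Toward hepatocytes were the plasma proteins of iron and haem: the haem scavenger Hpx (5.29 ± 0.11), transferrin, Trf (3.46 ± 0.1), and hepcidin, Hamp, with 12.38 and 12.32 in DEN hepatocytes, against 7.78 and 7.89 in DEN macrophages (4.52 ± 0.06, limma adjusted p = 4.55e-13). Toward macrophages was ferritin heavy chain Fth1, which stores iron, with 14.23 and 14.32 in DEN hepatocytes, against 15.05 and 14.98 in DEN macrophages (-0.74 ± 0.062, limma adjusted p = 9.95e-07). The iron exporter Slc40a1, the target of hepcidin, had 11.04 and 11.17 in DEN hepatocytes, against 11.63 and 11.66 in DEN macrophages (-0.54 ± 0.067), and Hfe and Hmox2 were likewise lower in hepatocytes (-0.63 and -0.45), 3 signs that turn on the ribosomal scale. Of 26 genes 11 were higher in hepatocytes and 5 in macrophages (median 0.20), against 27.8% and 39.5% of all genes.

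Genes for the uptake of dying cells and other particles went both ways. The bridging protein Gas6 had 12.21 and 12.07 in DEN hepatocytes, against 8.16 and 8.24 in DEN macrophages (3.94 ± 0.12, limma adjusted p = 3.07e-10), Mfge8 had 12.95 and 12.87 in DEN hepatocytes, against 9.75 and 9.52 in DEN macrophages (3.27 ± 0.081), and Pros1 differed by 1.90 ± 0.088, all higher in hepatocytes. So was the scavenger receptor Marco, described above. Axl, a receptor for Gas6, had 10.05 and 10.14 in DEN hepatocytes, against 11.32 and 11.45 in DEN macrophages (-1.29 ± 0.084, limma adjusted p = 1.35e-07), and Mertk and Mrc1 were also lower in hepatocytes (-0.35 ± 0.077 and -0.48 ± 0.057), with signs that turn on the ribosomal scale. Of 18 scavenger and efferocytosis genes 6 were higher in hepatocytes and 3 in macrophages (median 0.09, against -1.16 in untreated liver). Of all genes 27.8% were higher in hepatocytes and 39.5% in macrophages. Lysosomal genes, set against the same shares of all genes, were higher in hepatocytes for 7 of 21 and in macrophages for 11. Their median of -0.21 becomes 0.48 on the ribosomal scale and 0.0033 with cyclic loess. The antigen-processing proteases Ctss and Lgmn were lower in hepatocytes (-1.30 ± 0.12 and -1.05 ± 0.081), and the cholesterol exporter Npc1, the membrane protein Lamp2 and cathepsin D, Ctsd, were higher (0.74, 0.65 and 0.64).

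Matrix genes lay with the hepatocyte preparation, and leukocyte proteases with the macrophages. Of 25 genes 18 were higher in hepatocytes and 6 in macrophages (median 1.61, against -0.42 in untreated liver). Vitronectin, Vtn, a product of hepatocytes, had 13.48 and 13.55 in DEN hepatocytes, against 8.14 and 7.84 in DEN macrophages (5.52 ± 0.096). The proteoglycan Bgn, the collagen-binding Sparc and the fibrillar collagen Col3a1 are products of stellate cells and fibroblasts. Bgn had 11.79 and 11.76 in DEN hepatocytes, against 8.43 and 8.35 in DEN macrophages (3.39 ± 0.091), Sparc differed by 2.75 ± 0.089 and Col3a1 by 2.44 ± 0.053. The stellate markers moved with them, and their part was not tested. The gelatinase Mmp9 had 8.70 and 8.73 in DEN hepatocytes, against 10.86 and 10.78 in DEN macrophages (-2.10 ± 0.052, limma adjusted p = 3.85e-11), and Mmp13, Adam8 and Mmp8 were also lower in hepatocytes, Mmp8 at least 1.36-fold and in the other direction on the ribosomal scale.

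Proliferation genes were mostly higher in macrophages on the deposited scaling, 20 of 26 against 3 in hepatocytes. Of all genes 39.5% and 27.8% were. Their median of -0.43 becomes 0.27 on the ribosomal scale, where 17 were higher in hepatocytes and 4 in macrophages. The replication clamp Pcna had 7.83 and 7.79 in DEN hepatocytes, against 8.97 and 9.24 in DEN macrophages (-1.29 ± 0.076, limma adjusted p = 5.51e-08), and the helicase subunits Mcm4 and Mcm5 differed by -0.98 ± 0.065 and -0.95 ± 0.074. The D-type cyclins were opposed. Ccnd1 had 12.23 and 12.20 in DEN hepatocytes, against 10.43 and 10.61 in DEN macrophages (1.70 ± 0.061, limma adjusted p = 8.08e-10), and Ccnd3, the D cyclin typical of blood cells, had 9.98 and 10.14 in DEN hepatocytes, against 11.17 and 11.40 in DEN macrophages (-1.22 ± 0.087, limma adjusted p = 2.82e-07). In untreated liver Ccnd1 differed by -1.98, the other way. p53 targets were higher in macrophages for 11 of 15 and in hepatocytes for 4, the latter a share near the 27.8% of all genes. Their median of -0.37 becomes 0.33 on the ribosomal scale, where 10 were higher in hepatocytes and 2 in macrophages. Pmaip1, a killer of the BCL-2 family, was at least 2.59-fold higher in macrophages, and the stress sensor Gadd45a differed by -1.27 ± 0.096. The metabolic sensor Sesn2 was higher in hepatocytes (0.87 ± 0.077). For Mdm2 the difference was 0.18 without DEN hepatocytes replicate 1 and 0.09 without DEN macrophages replicate 2. Its sign turned when its probes were averaged (-0.0051). Cytosolic ribosomal protein genes themselves were higher in macrophages for 16 of 17 (median -0.73), with Rps6 at 12.25 and 12.14 in DEN hepatocytes, against 13.30 and 13.21 in DEN macrophages, and Rpl23, the exception (0.61 ± 0.087), turned sign when its probes were averaged.

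Interferon-stimulated genes were higher in macrophages for 19 of 23 and in hepatocytes for 3 (median -0.76). On the ribosomal scale 8 were higher in macrophages and 7 in hepatocytes, with a median of -0.063. The antiviral synthetase Oas2 had 8.30 and 8.38 in DEN hepatocytes, against 10.11 and 9.90 in DEN macrophages (-1.67 ± 0.069, limma adjusted p = 2.8e-09), and Irf9, part of the interferon-activated transcription complex, differed by -1.58 ± 0.068. The 3 higher in hepatocytes on the deposited scaling were Bst2, Rsad2 and Zbp1 (0.62 ± 0.17, 0.61 ± 0.062 and 0.32 ± 0.097). Without DEN macrophages replicate 1 Bst2 (0.41, limma adjusted p = 0.0788) and Zbp1 (0.27, limma adjusted p = 0.0858) were not called, nor was Zbp1 without DEN hepatocytes replicate 1 (0.16, limma adjusted p = 0.102). Immediate early and heat shock genes, which tissue digestion is known to raise, were higher in macrophages for 20 of 24 and in hepatocytes for 2. Of all genes 39.5% and 27.8% were. The list's median of -0.62 becomes 0.08 on the ribosomal scale. The mRNA decay factor Zfp36 had 11.93 and 11.97 in DEN hepatocytes, against 13.70 and 13.72 in DEN macrophages (-1.76 ± 0.044, limma adjusted p = 4.73e-11), Junb and Hspa1b differed by -1.18 ± 0.11 and -1.22 ± 0.051, and the small heat shock protein Hspb1 was higher in hepatocytes (2.33 ± 0.14). How these genes bear on the cytokine differences above was not tested.

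The cell difference of DEN liver differed from that of untreated liver for most genes. The contrast of the 2 differences, DEN minus untreated, was called for 7853 of 12471 genes (63%), 3832 (30.7%) with a shift toward hepatocytes and 4021 (32.2%) with a shift toward macrophages. Ribosomal centring moved the median of this contrast by -0.67 and gave 1523 shifts toward hepatocytes and 9395 toward macrophages. Large differences were fewer in DEN liver, where 1903 genes differed at least 2-fold, against 2644 in untreated liver, and the SD over genes was 0.903, against 1.22. The median absolute difference was 0.322 in DEN liver, against 0.31 in untreated liver, and 67.3% of genes were called, against 64.4%. Of the 1086 genes at least 2-fold higher in DEN hepatocytes, 554 were also at least 2-fold higher in untreated hepatocytes, 66 were at least 2-fold higher in untreated macrophages, and 466 were neither. Of the 817 on the macrophage side, 484 were also at least 2-fold higher in untreated macrophages, 329 were neither, and 4 were at least 2-fold higher in untreated hepatocytes. These 4 were G0s2, Gm4956, Hopx and Wdr33, the last 3 named after their values were seen.

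**Figure D4:**
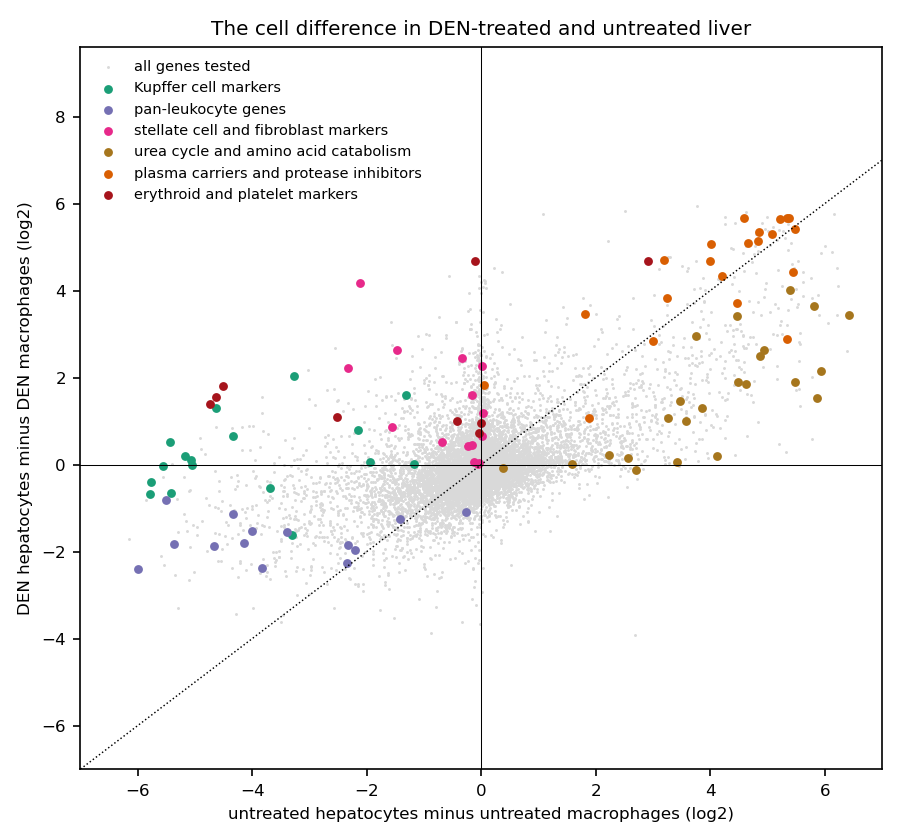
Difference between hepatocytes and macrophages on the log2 scale in DEN liver (vertical axis) against untreated liver (horizontal axis) for single genes of 6 lists, with a dotted line of equal differences, n = 2 arrays per group. All Kupffer cell and erythroid genes and most stellate cell genes lie above the line, urea cycle genes below it, and plasma carriers along it.

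Several lists of non-parenchymal markers shifted toward hepatocytes, and others did not. All 17 Kupffer cell markers shifted that way, with a median of 5.04, as did all 9 erythroid and platelet markers (3.60), all 7 cholangiocyte markers, 12 of 15 stellate markers (1.19) and 10 of 14 pan-leukocyte genes. Of all genes 30.7% did. Mast cell and basophil markers shifted toward macrophages for 6 of 8, and none the other way. B and plasma cell markers did so for 5 of 7, with 1 the other way. Toward hepatocytes and macrophages, neutrophil markers counted 6 and 7 and monocyte markers 5 and 5. Dendritic cell markers counted 3 and 4, and T and NK cell markers 4 and 1 (median -0.03). These counts depend on scaling. On the ribosomal scale neutrophil markers counted 4 and 9, monocyte markers 3 and 8, dendritic cell markers 3 and 6, and T and NK cell markers 3 and 6. Pan-leukocyte genes counted 9 and 4 there, and all 17 Kupffer cell markers still shifted toward hepatocytes. The summed Kupffer level was 25475 to 26205 in DEN hepatocytes, above the untreated hepatocytes, and 25082 to 26280 in DEN macrophages, far below the untreated macrophages (values above). Neutrophil markers summed to 37136 to 37206 in DEN hepatocytes and 62522 to 73915 in DEN macrophages, against 2628 to 2635 in untreated hepatocytes and 10424 to 10436 in untreated macrophages. Mast cell and basophil markers summed to 8172 to 8442 in DEN hepatocytes and 21012 to 22459 in DEN macrophages, against 1424 to 1426 in untreated hepatocytes and 1759 to 1765 in untreated macrophages. Summed neutrophil and mast cell signal was thus higher in each DEN preparation than in its untreated counterpart, and its part in the shifts was not tested. In DEN hepatocytes the median mast cell and basophil marker stood at 7.825, near background, and the highest at 12.57. The mast cell sum there is thus weighted to its highest members.

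Metabolic genes shifted toward macrophages. Plasma carriers had a median difference of 4.71 in DEN and 4.59 in untreated liver, with 12 of 21 shifted toward hepatocytes and 4 toward macrophages, counts that became 5 and 11 on the ribosomal scale. All 23 genes of the urea cycle and amino acid catabolism and all 18 bile acid genes shifted toward macrophages, as did 17 of 21 P450 genes, 21 of 26 fatty acid genes and 21 of 25 oxidative phosphorylation genes. Cps1, the entry enzyme of the urea cycle, had 9.07 and 8.68 in DEN hepatocytes, against 7.30 and 7.40 in DEN macrophages, and 13.55 and 13.43 in untreated hepatocytes, against 7.63 and 7.62 in untreated macrophages. The shift was -4.34 ± 0.14 (limma adjusted p = 9.12e-10). Untreated hepatocytes were the high arrays, DEN hepatocytes lay between, and both macrophage groups were at or near background.

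Oncofetal genes shifted toward hepatocytes for 17 of 20 (median 2.16), and matrix genes for 17 of 25 (median 1.55). G0s2 made the largest shift toward macrophages (-6.61 ± 0.14, limma adjusted p = 5.8e-11). It stood at 8.75 and 8.40 in DEN hepatocytes, against 12.54 and 12.46 in DEN macrophages, and at 10.35 and 10.54 in untreated hepatocytes, against 7.77 and 7.74 in untreated macrophages. The order of the cell types was thus opposite in the 2 kinds of liver, with no overlap of arrays in either. In DEN liver 81.3% of all genes had no overlap.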

How the data were processed

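RNA of hepatocyte, macrophage and sinusoidal endothelial cell preparations was hybridised to 12 Illumina mouse arrays, 2 for each of 6 groups. The log2 values, as deposited by the authors, were used without further normalization. Per the submitters' processing notes lumi was used, with neither version nor transform given in the sources used here. A second table of signals was not used, since its 12 signal columns match no sample label.

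Probes were named through the platform annotation and the RefSeq table of GRCm38.p6. Among 45281 probes a single gene symbol was found for 34885, several for 18 and none for 10378. A probe was kept if it exceeded background, the 95th percentile of 1503 odorant and vomeronasal receptor probes, on both arrays of at least 1 group. Of the 20084 named probes kept, the one with the highest mean stood for its gene. For the differences, limma 3.58.1 (lmFit and eBayes, R 4.3.3) fitted the 6 group means to all 12471 genes with 6 residual degrees of freedom, two-sided, with Benjamini-Hochberg adjustment. The contrast of DEN and untreated liver came from the same fit. The number of arrays limits the precision. The fit was tested on simulated data.

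Named genes were the 15 largest called differences each way above background, up to 4 called members of each list and direction, a preset list, and the 10 largest contrasts each way between DEN and untreated liver. The comparison, the lists and this rule were chosen with earlier results of these data known, so no list is independent evidence. Alternatives covered the samples fitted, scaling, background, filters, probe choice and each replicate left out. Figures were drawn with matplotlib 3.10.9 in Python 3.11.15.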

Additional observations from a re-analysis of the deposited data

Results flagged for a closer look

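The difference between hepatocytes and macrophages was not the same in DEN and untreated liver for 7853 genes, by limma's test of the difference of differences (adjusted p under 0.05). The 10 largest such contrasts each way are given, DEN minus untreated on the log2 scale ± SE, with n = 2 arrays per group.

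Toward hepatocytes the largest were those of the globins, with Hba-a1 at 6.306 ± 0.14, Hbb-bt at 6.187 ± 0.13 and Hbb-bs at 6.114 ± 0.19 (limma adjusted p = 5.92e-11, 5.8e-11 and 5.64e-10). These copies are near-identical and share signal. Hba-a1 had 15.07 and 15.11 in DEN hepatocytes, close to the maximum of the arrays, and 8.25 and 7.88 in untreated hepatocytes, while its macrophage values were 13.36 and 13.23 with DEN and 12.60 and 12.55 without. The proteoglycan Dcn followed at 6.301 ± 0.18, with 13.16 and 13.12 in DEN hepatocytes and 11.23 and 10.92 in untreated hepatocytes, against 9.13 and 8.78 in DEN macrophages and 13.24 and 13.14 in untreated macrophages.

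The remaining 6 genes are expressed by macrophages. Adgre1 (5.951 ± 0.08) had 12.09 and 12.002 in DEN hepatocytes and 8.47 and 8.44 in untreated hepatocytes, against 11.48 and 11.59 in DEN macrophages and 13.92 and 13.88 in untreated macrophages. It was thus higher in hepatocytes and lower in macrophages with DEN than without. The ficolin Fcna (5.94), properdin Cfp (5.516), Vsig4 (5.509), the guanylate-binding protein Gbp2b (5.494) and the syndecan Sdc3 (5.421) showed the same arrangement.

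Toward macrophages, G0s2 led at -6.613, the one gene of these whose DEN macrophages exceeded their untreated counterparts by several log2 units. The other 9 encode hepatocyte enzymes or proteins of liver and kidney. Car3, a carbonic anhydrase, gave -5.196, with 8.06 and 7.81 in DEN hepatocytes and 13.78 and 12.91 in untreated hepatocytes, against 7.36 and 7.35 in DEN macrophages and 7.57 and 7.56 in untreated macrophages. The male-biased fatty acid hydroxylases Cyp4a12a and Cyp4a12b gave -5.04 and -4.228 and are near copies of each other, and the male-biased steroid enzyme Hsd3b5 gave -4.725. Hsd3b5 stood at 7.79 and 7.87 in DEN hepatocytes and 12.63 and 12.82 in untreated hepatocytes. Cps1 gave -4.337, the glycine acyltransferase-like Keg1 -4.237, the sulfotransferase Sult2a8 -3.991, the cysteine-forming Cth -3.93 and the tryptophan-pathway enzyme Haao -3.86. DEN hepatocytes were lower than untreated hepatocytes for all 9.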

How the results depend on the processing

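Calls ranged from 7356 with only the compared arrays to 8766 with median centring over the settings other than ribosomal centring, against 8398 as reported, and ribosomal centring gave 11099. Leaving out 1 of the 4 compared arrays gave 7549 to 8426 calls, 1089 to 1115 genes at least 2-fold higher in hepatocytes and 806 to 828 higher in macrophages. Leaving out 1 of 8 arrays gave 7171 to 8061 contrasts of DEN with untreated liver. Subtracting background gave 2512 and 3006 genes at least 2-fold higher in hepatocytes and in macrophages, and limma's treat against a 2-fold difference gave 848 and 510. Ribosomal centring, chosen after the data were seen and run for the counts, the named genes and the lists, gave 2841 and 217. It turned the sign of 30 of 276 named genes and ended the call of 7 more. Averaging the probes of a gene turned Lyz2 (-0.167), Ltf (-0.1155), Ctsa (-0.1064), Zeb2 (-0.003328), Mdm2 (-0.005097) and Rpl23 (-0.09458), and cyclic loess turned Vsig4 (0.07828). The cause was not tested. Whether the replicate numbers pair the samples is not known. Same-numbered arrays of DEN hepatocytes and DEN macrophages had deviations correlated at -0.0023 (range -0.0604 to 0.0781 over all pairs of groups). With 2 arrays per group, in which technical spread can hide a shared source, these correlations cannot settle it. The fit with the replicate block called 8335 genes, with every named result keeping its side of the threshold. Genes near background or near the maximum of the arrays have compressed differences.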

Other observations

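Of the 1086 genes at least 2-fold higher in DEN hepatocytes, 66 were at least 2-fold lower in untreated hepatocytes than in untreated macrophages. Beside Dcn, Ifngr2 and Sparc, the largest DEN differences among them were those of the matrix protein Prelp (3.28 in DEN, -1.57 in untreated liver), the prostacyclin synthase Ptgis (2.67 and -2.55) and the endothelin receptor Ednrb (2.67 and -1.04). These 3 are products of stromal or endothelial cells and were picked after their values were seen, like those that follow. The protease inhibitor Timp2 had 11.54 and 11.49 in DEN hepatocytes, against 9.37 and 9.31 in DEN macrophages, and 7.57 and 7.69 in untreated hepatocytes, against 10.70 and 10.62 in untreated macrophages. The metallothionein Mt1, a metal-binding stress protein, had 13.997 and 13.91 in DEN hepatocytes, against 12.25 and 12.21 in DEN macrophages, and 9.19 and 9.35 in untreated hepatocytes, against 11.91 and 12.04 in untreated macrophages. The order of the preparations was reversed in the 2 kinds of liver for both genes. Stellate cell and vascular endothelial markers moved with these genes (12 of 15 and 12 of 14 with contrasts toward hepatocytes), and their part was not tested.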
